A study of Mus musculus with 6 samples.

Results

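The genes described here are the 3 PEA3 factors Etv1, Etv4 and Etv5 and 7 feedback inhibitors of ERK signalling, Spry1, Spry2, Spry4, Spred1, Spred2, Dusp4 and Dusp6. These 10 genes, of 43629 mouse genes in the count table, were taken by symbol. Etv1 was chosen by its read counts in these same libraries, which were near 0 in one group. Its values are therefore a description and carry no test, and the others joined it as genes of the same pathway. Poly-A RNA came from the mouse neuroblastoma line M1. Both groups were kept in doxycycline, at 4 to 6 µg/ml, for 6 days. In 3 libraries the drug induced a non-targeting hairpin (shNT, genotype WT), and in the other 3 a hairpin against Igf2bp1 (shIGF2BP1, genotype IGF2BP1 knockdown), called the knockdown-labelled libraries here. Igf2bp1 encodes an RNA-binding protein that stabilises selected mRNAs. One targeting hairpin is named, no clone or separate culture is stated, and the p-values rest on a spread between libraries that may be only technical.

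ERK is the last kinase of the cascade that runs from growth factor receptors through RAS, RAF and MEK. Active ERK switches on the PEA3 subfamily of ETS transcription factors, in part by relieving repression by the protein CIC (Capicua). It also switches on its own brakes. Sprouty and Spred proteins act upstream, on the activation of RAS and RAF, while the phosphatases Dusp4 and Dusp6 remove phosphate from ERK itself. The mRNA levels of these genes are widely used as a readout of ERK activity, and relapsed neuroblastomas often carry mutations in the RAS and ERK pathway.

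CIC and ETS factors bind short DNA words in the promoters of such genes. RefSeq windows of GRCm38.p6 ran from 250 bases before to 50 bases after a transcription start. Matched by symbol, 7 of the 10 genes were searched, in 9 windows. Etv4, Spry4 and Dusp4 had no window in this search. For the 10 genes, windows on the chromosome of Spry4 were left out by choice, but they were kept among all windows. The promoter of Spry4 was therefore not tested for these words. Both strands were searched for the CIC words TGAATGAA, TGAATGGA, TCAATGAA and TCAATGGA, for the ETS core GGAAGT and for the longer ETS word CCGGAAGT, which contains the core. A CIC word was found in 2 of the 7 genes, Spry2 and Dusp6, and in 3.84% of all 32851 windows. The ETS core was found in 3 genes, Etv1, Etv5 and Spred2, and in 23.8% of windows, and the longer ETS word in 0 genes and 3.89% of windows. A gene was counted if any of its windows matched, so the gene counts and the shares of windows are in unlike units. Etv1 and Etv5 each had another window, without a match, that is not shown. Shown first are Etv1, which was near 0 in one group, and Etv5, a PEA3 factor abundant in every library, and then the promoters with CIC words. Matches are in capitals, and all sequences read 5′ to 3′ on the strand of the gene.
Etv1, chr12:38779832-38780131, plus strand: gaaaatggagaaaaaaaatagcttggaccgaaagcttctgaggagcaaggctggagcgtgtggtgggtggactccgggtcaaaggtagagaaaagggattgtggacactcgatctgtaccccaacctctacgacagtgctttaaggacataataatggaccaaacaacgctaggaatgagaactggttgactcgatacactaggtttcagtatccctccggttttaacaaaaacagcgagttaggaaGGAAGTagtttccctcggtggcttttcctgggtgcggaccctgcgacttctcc
Etv5, chr16:22438319-22438618, minus strand: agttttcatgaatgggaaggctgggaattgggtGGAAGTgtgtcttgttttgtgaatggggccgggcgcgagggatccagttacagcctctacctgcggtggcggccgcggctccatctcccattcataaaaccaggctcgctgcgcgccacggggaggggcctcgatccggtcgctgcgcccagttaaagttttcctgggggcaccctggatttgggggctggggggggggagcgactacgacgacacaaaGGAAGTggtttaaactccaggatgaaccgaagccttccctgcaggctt
Spry2, chr14:105896770-105897069, minus strand: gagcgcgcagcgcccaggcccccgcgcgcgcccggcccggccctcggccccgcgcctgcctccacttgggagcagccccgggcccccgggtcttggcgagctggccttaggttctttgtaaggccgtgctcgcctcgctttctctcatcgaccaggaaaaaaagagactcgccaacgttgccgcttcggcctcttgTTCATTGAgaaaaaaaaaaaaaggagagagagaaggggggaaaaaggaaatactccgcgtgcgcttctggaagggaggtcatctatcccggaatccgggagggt
Dusp6, chr10:99262981-99263280, plus strand: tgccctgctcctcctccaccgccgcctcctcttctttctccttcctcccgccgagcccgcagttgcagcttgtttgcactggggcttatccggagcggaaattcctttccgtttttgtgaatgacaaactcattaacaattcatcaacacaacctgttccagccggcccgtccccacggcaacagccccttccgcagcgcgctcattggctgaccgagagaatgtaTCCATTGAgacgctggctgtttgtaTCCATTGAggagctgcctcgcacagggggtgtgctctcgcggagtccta
With the first transcribed base as position 0, the ETS core spans -3 to 2 in Etv1, and -217 to -212 and 2 to 7 in Etv5. The CIC word TCAATGGA lies on the opposite strand at -24 to -17 and at 1 to 8 in Dusp6, and TCAATGAA lies on the opposite strand at -54 to -47 in Spry2. A match is a string of letters and not a measured binding site.

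Library totals ran from 25119655 to 35373076 counts, and 13445 genes passed the filter on low counts. The targeted transcript did not separate the groups: Igf2bp1 had 37, 175 and 201 counts in shNT and 67, 35 and 311 in the knockdown-labelled libraries (log2 fold change 0.25 ± 0.79, SE, n = 3 each; edgeR adjusted p = 0.966). Every direction below therefore compares libraries by label. Over all genes tested, edgeR called 3, which is 0.0223%, with 5 called without shNT replicate 3 and 1 without any other single library. Of 10 neuroblastoma and sympathetic markers, 5 were well enough counted to be tested, among them Hand2, Mycn and Isl1, while Th and Dbh had 0 counts in all libraries. The summed level of the list was 346 to 571 CPM in shNT and 510 to 539 CPM in the other group. Of 8 macrophage and leukocyte markers 4 were tested, with a summed level of 11.8 to 17.3 CPM in shNT against 8.46 to 9.22 CPM in the knockdown-labelled libraries, and Adgre1 had 0 counts. Of these 4, Cd68 had 11.9 ± 3.6 CPM against 4.12 ± 1.28 CPM (edgeR adjusted p = 0.403), and the other 3 had positive log2 fold changes, with a list median of 0.31. Among these 3, Fcer1g had 7 counts in shNT against 40 in the other group (edgeR adjusted p = 0.616). The 6 endothelial markers (2 tested) summed to 37.1 to 53.8 and 31.1 to 73.7 CPM, the 8 fibroblast markers (5 tested) to 375 to 462 and 290 to 578 CPM, and the 7 Schwann and glial markers (2 tested) to 11.9 to 12.9 and 6.16 to 13.4 CPM. The fibroblast sum was mostly Col1a1, with 319 ± 61.9 CPM in shNT and 321 ± 149 CPM in the other group (SD). Of the 5 tested, 3 were higher and 2 lower, 3 with an unadjusted edgeR p under 0.05, against 7.16% of all genes. Postn had 12 counts in shNT against 117, of which 91 were in shIGF2BP1 replicate 3. Pdgfra and Pdgfrb had log2 fold changes of -0.69 and -0.87. Of the endothelial markers, Kdr had -1.95 and Pecam1 0.48. None of the markers was called. Emcn, Lum and Sox10 had 0 counts. The part of other cells in the results was not tested.

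Etv1, a PEA3 factor that drives growth in some tumours and specifies certain neurons, was nearly absent from the knockdown-labelled libraries. Etv1 (ENSMUSG00000004151) lies on the plus strand of chromosome 12, from 38779380 to 38870484 in GRCm38. Its counts were 163, 102 and 59 in shNT replicates 1, 2 and 3, and 0, 2 and 3 in the knockdown-labelled libraries. As CPM, counts scaled to library size with TMM factors, these were 5.49, 2.99 and 1.78 against 0, 0.0567 and 0.109. The groups did not overlap, as in 11.6% of all genes tested (5.59% with the knockdown-labelled libraries lower). In bulk RNA, fewer cells with a transcript and less of it per cell cannot be told apart. Pooled, 324 counts stood against 5, a ratio of 59.5 with an exact 95% counting interval from 25.2 to 184. Such an interval covers counting error only and not the spread between libraries. Because Etv1 was chosen for this difference, the ratios and intervals given here are a description and no test. Without shIGF2BP1 replicate 3, which held 3 of the 5 counts, the ratio was 103 (28.2 to 853). Without shNT replicate 3 it was 73.9 (31.3 to 230). The lowest ratios were 42 (17.8 to 130) without shIGF2BP1 replicate 1 and 42.6 (17.9 to 133) without shNT replicate 1.

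The tested neighbours of Etv1 on the chromosome overlapped between the groups. The nearest tested gene after it, Arl4a, a small GTPase 1.13 Mb away, had 15.8 ± 1.6 CPM in shNT against 16.2 ± 1.32 CPM in the knockdown-labelled libraries (SD, n = 3 each; edgeR adjusted p = 0.983). The nearest tested gene before it, Ispd, 2.09 Mb away, had 1.16 ± 0.65 and 0.813 ± 0.166 CPM (edgeR adjusted p = 0.898).

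The other PEA3 factors were abundant in every library and did not pass the test. Etv4 (ENSMUSG00000017724, chromosome 11, 101769742 to 101785371, minus strand), known from branching organs and tumour invasion, had 44.6, 71.9 and 81.6 CPM in shNT against 39.7, 55.6 and 77.2 CPM in the knockdown-labelled libraries. Its log2 fold change, -0.20 ± 0.29 (SE, here and below), had a 95% interval of -0.84 to 0.44 (edgeR adjusted p = 0.929). Etv5 (ENSMUSG00000013089, chromosome 16, 22381309 to 22439719, minus strand), which often acts redundantly with Etv4, had 47.6, 63.9 and 75.9 CPM against 36.2, 65.1 and 72.8 CPM (log2 fold change -0.11 ± 0.28, interval -0.72 to 0.51, edgeR adjusted p = 0.96). The groups overlapped in both genes. The PEA3 genes are paralogs, and how reads matching more than 1 of them were counted is not given in the sources used here. Within shNT, Etv1 was highest in replicate 1 and lowest in replicate 3, whereas Etv4 and Etv5 were lowest in replicate 1 and highest in replicate 3. With 3 libraries this is a description.

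**Figure D1:**
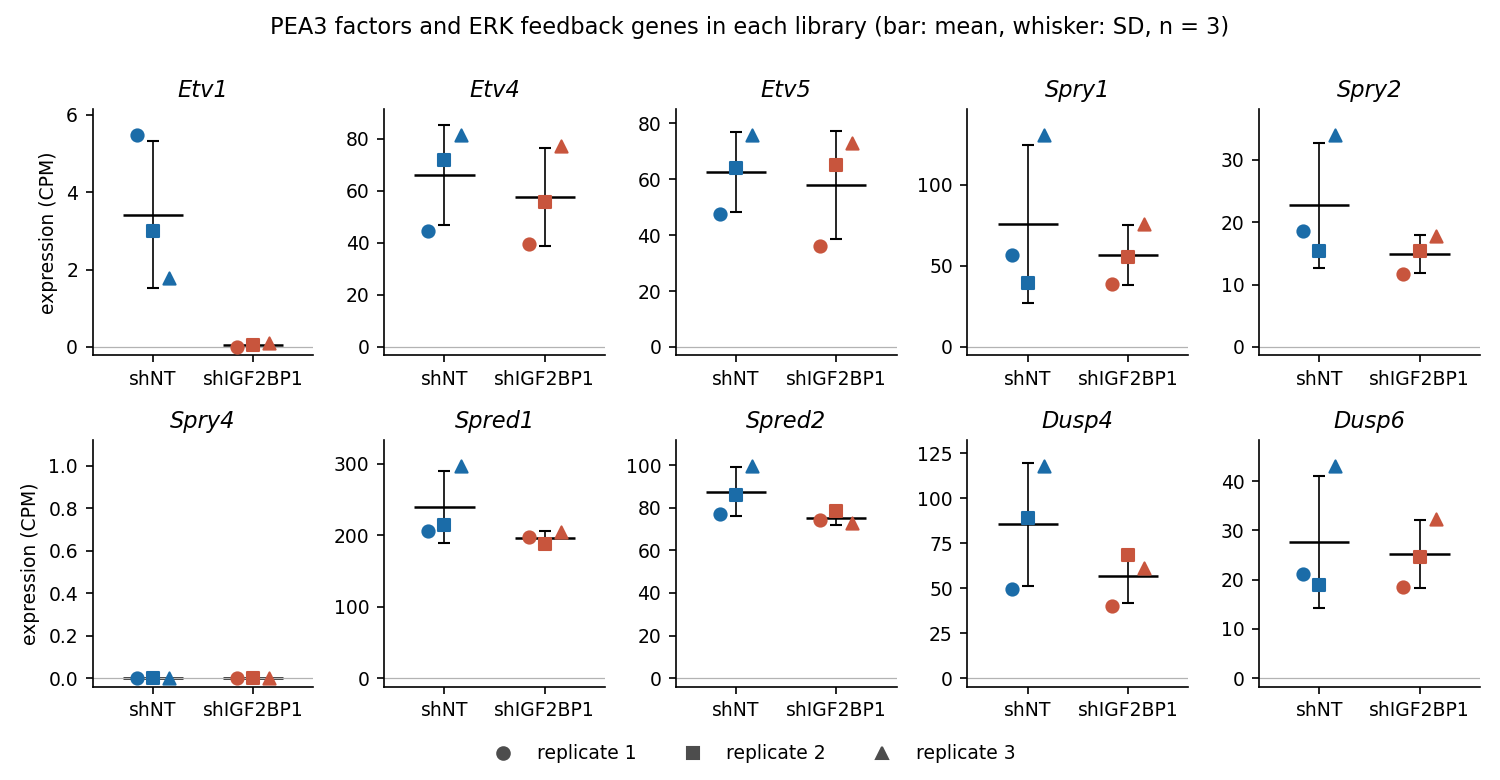
Expression of the 10 genes in CPM (y axis, linear, a separate scale for each gene) in the 3 shNT and 3 shIGF2BP1 libraries, with symbols for the replicate number, bars for the mean and whiskers for the SD. Etv1 lies between 1.78 and 5.49 in shNT and at or below 0.109 in the other group, while shNT replicate 3 is the highest library for each of the 8 other genes with counts.

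Levels between genes were compared per kilobase of annotated exon. Per kilobase, Etv4 had 21.3 ± 6.19 and Etv5 15.2 ± 3.46 CPM in shNT (SD, n = 3), against 0.258 ± 0.142 CPM for Etv1. Etv1 was thus the least abundant PEA3 factor in the shNT libraries too. Its exon length of 13296 bases joins all annotated isoforms, so a shorter true transcript would give a higher value. Over all 6 libraries the order per kilobase was Spred1 (32.1 ± 5.86 CPM), Dusp4 (26 ± 10.4), Spry1 (22.8 ± 11.9), Etv4 (19.9 ± 5.69), Spred2 (17.6 ± 2.18), Etv5 (14.7 ± 3.73), Spry2 (9.01 ± 3.76), Dusp6 (8.44 ± 3.08), Etv1 (0.131 ± 0.165) and Spry4 at 0. Each gene from Spred1 to Dusp6 overlapped its neighbour in this order in its range over the libraries. Etv1 reached 0.413 CPM per kilobase at most, below the lowest value of those 8 genes, 5.59 for Spry2.

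**Figure D2:**
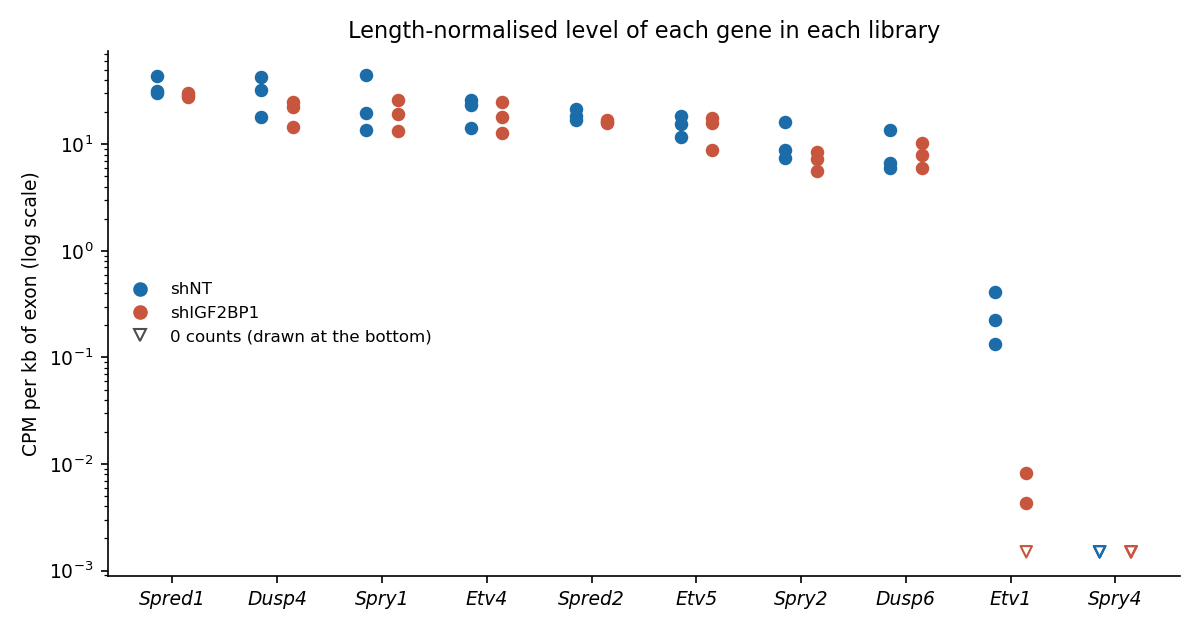
Level per kilobase of exon (CPM per kb, y axis, log scale) of each gene in the 3 shNT and 3 shIGF2BP1 libraries, 1 point per library, with genes ordered by their mean. The 8 genes from Spred1 to Dusp6 lie between 5.59 and 45.0, Etv1 lies at or below 0.413, and libraries with 0 counts are drawn as open triangles at the bottom.

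The Sprouty genes, inhibitors of receptor signalling to RAS and RAF, gave lower fitted values in the knockdown-labelled libraries that did not pass the test. Spry1 (ENSMUSG00000037211, chromosome 3, 37639947 to 37644598, plus strand) had 56.6, 39.2 and 131 CPM in shNT against 39.1, 55.7 and 75.8 CPM in the other group (log2 fold change -0.41 ± 0.40, interval -1.29 to 0.48; edgeR adjusted p = 0.888). The groups overlapped, and shNT replicate 3 alone stood above the rest. Spry1 shares 710 exon bases with Gm42922 on the opposite strand, and the strand setting of the counting is not given in the sources used here. Spry2 (ENSMUSG00000022114, chromosome 14, 105891947 to 105896819, minus strand) had 18.6, 15.4 and 34 CPM against 11.7, 15.3 and 17.8 CPM (log2 fold change -0.60 ± 0.32, interval -1.31 to 0.11; edgeR adjusted p = 0.76). Without shNT replicate 3 the values were 0.25 for Spry1 and -0.19 for Spry2. Spry4 (ENSMUSG00000024427) had 0 counts in all 6 libraries, which allows a level of up to 0.0851 to 0.114 CPM, depending on the library, if its reads were counted. Whether the 0 reflects the cells or the counting cannot be told apart here. Of its tested neighbours, Ndfip1 had 118 ± 17.5 CPM and Arhgap26 0.23 ± 0.233 CPM in shNT.

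The Spred genes, relatives of the Sprouty genes that bring the RAS inhibitor neurofibromin to the membrane, did not pass the test. Spred1 (ENSMUSG00000027351, chromosome 2, 117121374 to 117182279, plus strand) had 206, 214 and 297 CPM in shNT against 197, 187 and 205 CPM in the knockdown-labelled libraries. Its groups did not overlap, by a margin of less than 1 CPM, and Spred1 was the only one of the 8 tested genes other than Etv1 without overlap, where 11.6% of all genes had none. That count is near the share over all genes. The log2 fold change was -0.28 ± 0.21 (interval -0.75 to 0.18; edgeR adjusted p = 0.837), and -0.097 without shNT replicate 3. Spred2 (ENSMUSG00000045671, chromosome 11, 19924375 to 20024026, plus strand) had 77.3, 85.8 and 99.7 CPM against 74.2, 78.5 and 72.7 CPM, overlapping, with a log2 fold change of -0.22 ± 0.19 (interval -0.63 to 0.19; edgeR adjusted p = 0.865).

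The phosphatase Dusp4 (ENSMUSG00000031530, chromosome 8, 34807297 to 34819894, plus strand), which acts on ERK in the nucleus, had 49.7, 88.9 and 118 CPM in shNT against 40.2, 68.5 and 61.3 CPM in the knockdown-labelled libraries. Its log2 fold change of -0.60 ± 0.31 (interval -1.28 to 0.091) had the smallest p of the 8 genes and did not pass the test (edgeR adjusted p = 0.754). It became -0.29 without shNT replicate 3 and -0.87 without shNT replicate 1. Dusp6 (ENSMUSG00000019960, chromosome 10, 99263231 to 99267489, plus strand), the cytoplasmic phosphatase specific for ERK and a common marker of its output, had 21.1, 18.9 and 43.1 CPM against 18.6, 24.6 and 32.4 CPM. The log2 fold change was -0.14 ± 0.34 (interval -0.88 to 0.61; edgeR adjusted p = 0.957) and turned to 0.33 without shNT replicate 3. The interval includes differences in both directions, so equal levels of Dusp6 are not shown.

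Counted together, 0 of the 8 tested genes other than Etv1 passed an edgeR adjusted p of 0.05, where 0.0223% of all genes did. At an unadjusted p under 0.05 edgeR counted 0 of the 8, against 7.16% of all genes, and at an adjusted p of 0.05 DESeq2 and limma-voom counted 0 of the 8 each, against 0.61% and 0.00744%. All 8 fitted log2 fold changes were negative with a median of -0.25, where 51.5% of all genes were negative and their median was -0.012. Without shNT replicate 3, 5 of the 8 were negative with a median of -0.058. Without shIGF2BP1 replicate 1, 5 of the 8 were also negative, with a median of -0.21. The library shNT replicate 3 was the highest of the 6 for 8 of the 8 genes and for 24.5% of all genes tested. Replicate 3 was the highest library within both groups for 6 of the 8 (Etv4, Etv5, Spry1, Spry2, Spred1 and Dusp6) and for 16.2% of all genes.

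The wider list of ERK output genes was also highest in shNT replicate 3. It holds immediate early factors and growth factor response genes, and 22 of its 25 genes were tested. None was called by edgeR, DESeq2 or limma-voom, and 3 had an unadjusted edgeR p under 0.05, against 7.16% of all genes. Of the 22 fitted values 19 were negative with a median log2 fold change of -0.62, where 51.5% of all genes were negative. Without shNT replicate 3, 11 of 22 were negative and the median was 0.003. That library was the highest for 19 of the 22. The median level relative to the mean of each gene over the libraries was 0.94 (log2) in shNT replicate 3, -0.18 and -0.43 in the other shNT libraries, and -0.47, -0.12 and -0.16 in the knockdown-labelled libraries.

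Errfi1, a feedback inhibitor of the EGF receptor, had 40.0, 36.8 and 152 CPM in shNT against 23.6, 30 and 35.7 CPM in the knockdown-labelled libraries, without overlap. No other of the 22 tested ERK output genes was without overlap, where 11.6% of all genes tested had none. The log2 fold change of Errfi1, -1.36 ± 0.48 (edgeR adjusted p = 0.62), moved to -0.37 without shNT replicate 3. Fosl1, an AP-1 subunit stabilised by ERK, had 280 CPM in shNT replicate 3 and 18.5 to 53.2 CPM elsewhere, and Myc had 121 CPM there and 3.17 to 10.9 CPM elsewhere. Ier2, an immediate early gene, had 80.4, 26.9 and 128 CPM against 37.1, 46.9 and 38.0 CPM, with a fitted log2 difference of -0.94 ± 0.43 (edgeR adjusted p = 0.695). Etv1 had its lowest shNT value, 1.78 CPM, in this same replicate 3.

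**Figure D3:**
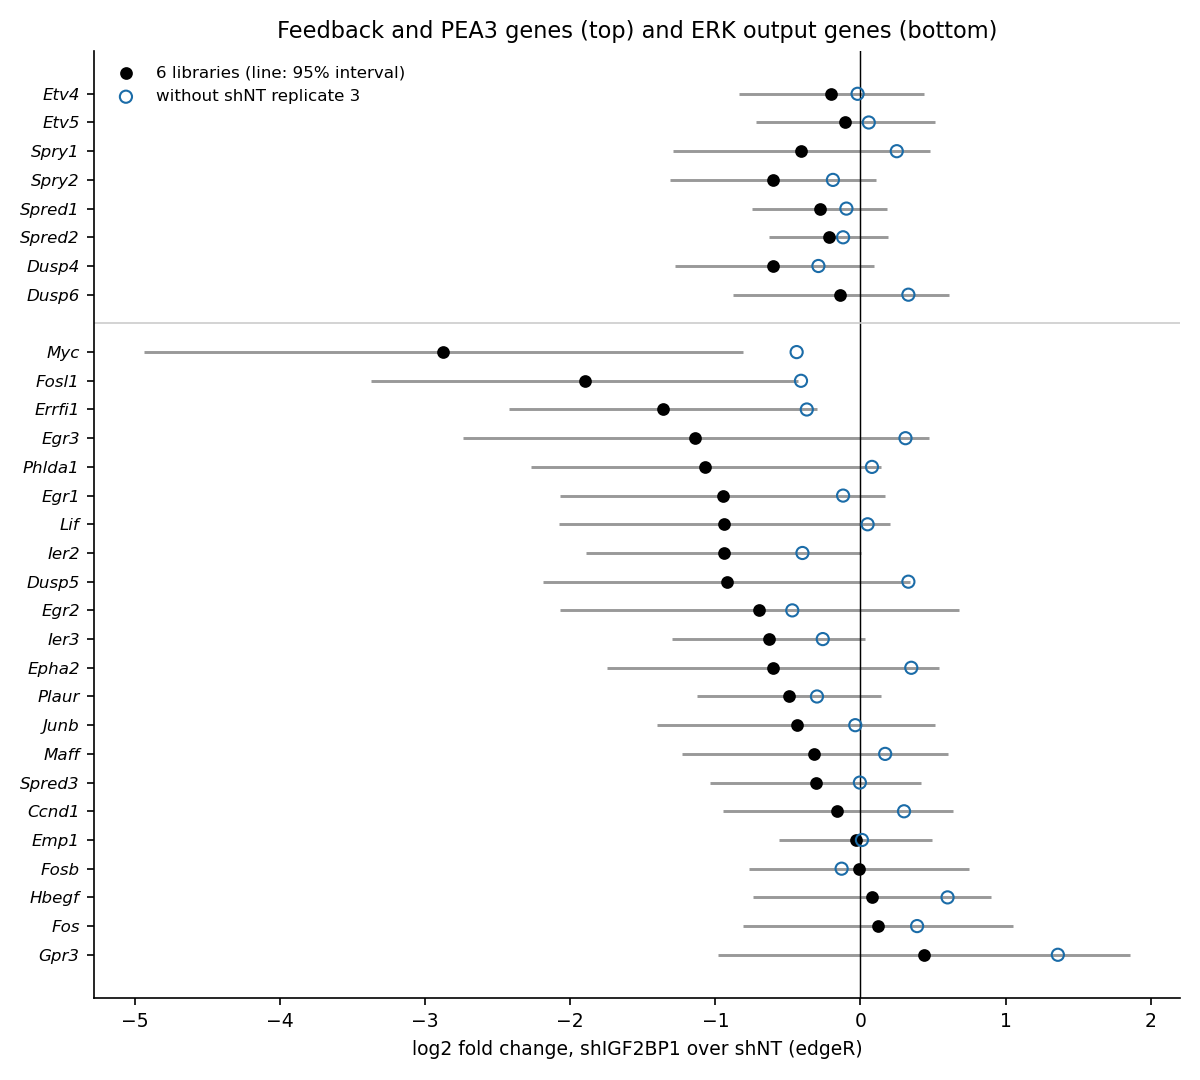
edgeR log2 fold change, shIGF2BP1 over shNT (x axis), of the 8 tested genes other than Etv1 (top) and of the 22 tested ERK output genes (bottom), with lines for the 95% interval and open circles for the fit without shNT replicate 3. All 8 upper values are negative with intervals that include 0. Without shNT replicate 3, 5 of the 8 upper and 11 of the 22 lower values are negative.

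Upstream parts of the pathway held 0 called genes by edgeR, DESeq2 or limma-voom. Of 26 genes of the cascade from RAS to ERK and its kinase targets, 2 had an unadjusted edgeR p under 0.05. The share over all genes was 7.16%. Of the 26, 19 were negative with a median log2 fold change of -0.18, where 51.5% of all genes were negative. Without shNT replicate 3 the median was -0.07, with 16 negative. Rps6ka3, a kinase that ERK activates, had 143, 153 and 191 CPM in shNT against 109, 99.5 and 103 CPM in the knockdown-labelled libraries, without overlap (log2 fold change -0.65 ± 0.19, edgeR adjusted p = 0.524; -0.51 without shNT replicate 3). Its relative Rps6ka1 also had groups without overlap, with 70.9 ± 14.3 CPM in shNT against 99.6 ± 9.32 CPM in the other group (SD, n = 3 each). The log2 fold change of Rps6ka1 was 0.49 ± 0.21 (edgeR adjusted p = 0.686). The groups did not overlap in 3 of the 26 genes, 2 of them lower, and in 11.6% of all genes tested. Among 16 tested other brakes on RAS and RAF, a list that includes the Sprouty gene Spry3, 9 were positive and 7 negative, with a median of 0.088 and 0 called (0 at an unadjusted p under 0.05, edgeR). That median was -0.11 without shNT replicate 1 and -0.008 without shIGF2BP1 replicate 3. Il17rd, a membrane inhibitor of FGF signalling, had 4.71 ± 1.45 and 6.95 ± 1.28 CPM (edgeR adjusted p = 0.794).

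FGF receptors feed this cascade, and only 4 of 15 FGF genes had enough counts to be tested. Fgfr1 had 102, 94.2 and 105 CPM in shNT against 64.4, 84.6 and 63.4 CPM in the knockdown-labelled libraries, without overlap (log2 fold change -0.51 ± 0.19, edgeR adjusted p = 0.663). Its value was -0.47 without shNT replicate 3. The ligand Fgf7 had 10.2, 7.37 and 16.5 CPM against 6.07, 6.64 and 5.87 CPM (edgeR adjusted p = 0.674). Fgfr3, at a low level, had 1.31 ± 0.143 and 2.32 ± 0.182 CPM (edgeR adjusted p = 0.748). None of these passed the test, and 2 of the 4 FGF genes had an unadjusted p under 0.05, against 7.16% of all genes. Fgf7 and Fgfr3 also had groups without overlap, Fgf7 lower and Fgfr3 higher in the knockdown-labelled libraries. That made 3 of the 4 without overlap, where 11.6% of all genes tested had none. Over all 7 pathway lists, 11 of 98 tested genes had no overlap, near that share.

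The remaining phosphatases, ETS factors and PEA3 regulators held 0 called genes by edgeR, DESeq2 or limma-voom. They held 0, 1 and 1 genes with an unadjusted edgeR p under 0.05, against 7.16% of all genes. In the edgeR fit 51.5% of all genes had negative values. Of 8 tested dual-specificity phosphatases outside the genes above, 6 were negative with a median log2 fold change of -0.24, which turned to 0.15 without shNT replicate 3. Dusp8, a phosphatase mainly of other MAP kinases, had 18.3 CPM in shNT replicate 3 and 0.539 to 2.88 CPM elsewhere. Of 24 other ETS family genes, 9 had 0 counts in all libraries (Fli1, Erg and Fev among them) and 12 were tested, of which 10 were negative with a median of -0.17. With shNT replicate 3 left out, 6 of the 12 were negative with a median of -0.064, and with library size only 8 were negative. Under library size only, 5629 of all 13445 genes tested were negative, and the median of all genes was 0.068. Ets2 had 172 ± 81.7 CPM in shNT against 100.0 ± 30.8 CPM in the knockdown-labelled libraries (SD, n = 3 each; edgeR adjusted p = 0.686), and Etv6, a repressor, had 71.6 ± 10.7 and 53.7 ± 2.53 CPM without overlap (edgeR adjusted p = 0.71). Among the 10 regulators of PEA3 factors and CIC, 7 were negative with a median of -0.036. Scaled by library size only, 4 were negative with a median of 0.044, beside the 0.068 of all genes. Without shNT replicate 1, 8 were negative with a median of -0.19. Cic itself had 158, 243 and 188 CPM against 180, 238 and 144 CPM. Its partner Atxn1l had 104 ± 25.3 and 72.5 ± 4.09 CPM (edgeR adjusted p = 0.686). Cop1, which marks PEA3 proteins for degradation, had 102 ± 5.26 and 87.6 ± 3.25 CPM without overlap (edgeR adjusted p = 0.853). Etv6 was the only one of the 12 ETS genes without overlap and Cop1 the only one of the 10 regulators, where 11.6% of all genes had none.

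**Figure D4:**
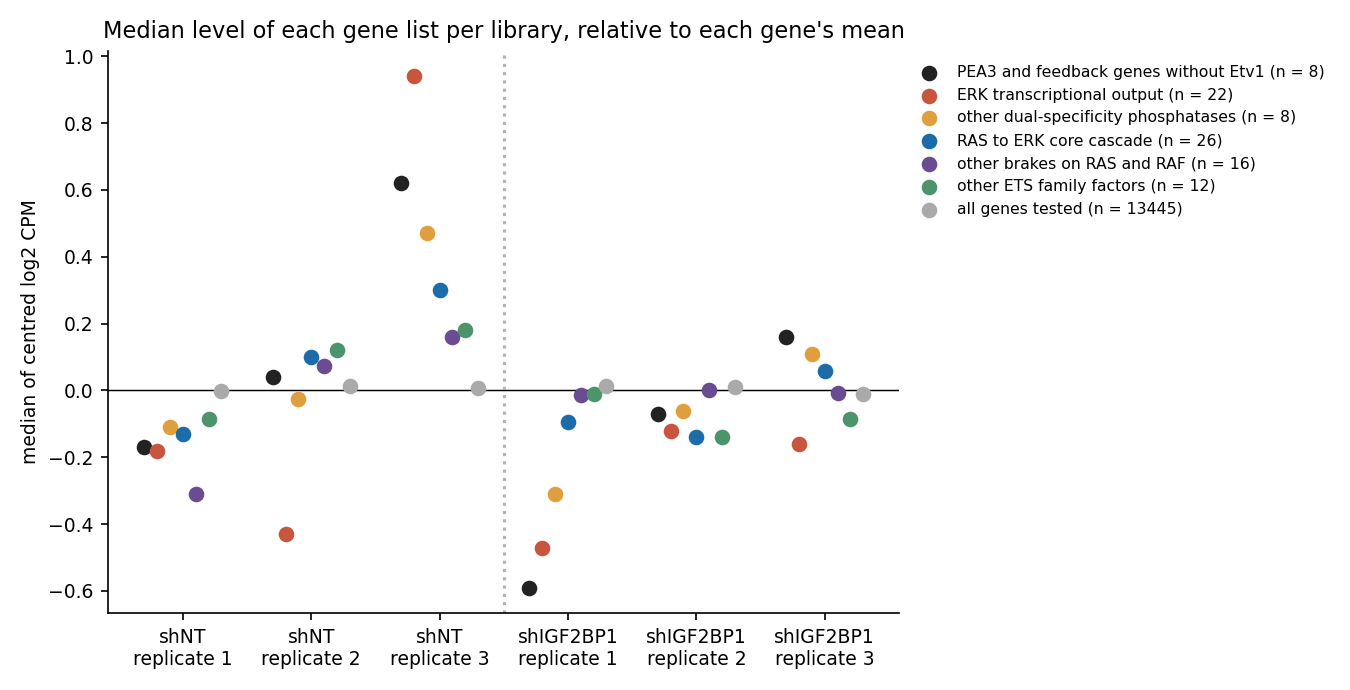
Median level of each gene list in each library (y axis, log2 CPM after subtracting the mean of each gene over the 6 libraries), with shNT left and shIGF2BP1 right of the dotted line. The PEA3 and feedback genes without Etv1 reach 0.62 and the ERK output genes 0.94 in shNT replicate 3, and all genes tested lie within 0.013 of 0 in every library.

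The genes with the most similar pattern to Etv1 were sought among 12143 tested genes with a mean of 1 CPM or more, by the root mean square difference of centred log2 CPM over the 6 libraries. Since Etv1 was chosen for its difference, this likeness is a description. The nearest were Rasal3 at 0.61, Zp1 at 0.97, Stra6 at 1.1, Saa3 at 1.8 and Zfp831 at 1.9 log2 units. Rasal3, a GTPase-activating protein for RAS, had 2.26, 3.26 and 0.696 CPM in shNT against 0, 0.0284 and 0.0365 CPM in the knockdown-labelled libraries, or 201 counts against 2. Of the 201 counts, 111 were in shNT replicate 2. Zp1 and Stra6 are among the 3 genes that edgeR called. For Dusp6 the nearest patterns were those of Aen, Dhrs9, Bcar1, N4bp3 and Ccn4, at 0.1 to 0.13 log2 units. Aen had 25.8, 25.5 and 54.1 CPM in shNT against 21.6, 32.9 and 35.8 CPM in the other group, with shNT replicate 3 again the highest.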

How the data were processed

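Poly-A RNA of 6 libraries was sequenced, 3 per group. The authors deposited 1 table of unnormalized read counts, whole numbers whose totals differ between libraries. Per the submitters' processing notes, reads were handled with bcl2fastq, HISAT2 2.1.0 and HTSeq on GRCm38. Their annotation release and strand setting are not stated there. Columns were joined to samples by library name. Symbols from GENCODE M21 matched 42548 of 43629 gene IDs, and 92 spike-in rows had 0 counts and were left out.

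Counts were tested with edgeR 4.0.16 in R 4.3.3 (TMM, filterByExpr with a minimum count of 10 and total of 15, robust quasi-likelihood F test, two-sided, no covariates), Benjamini-Hochberg adjusted over 13445 genes with a threshold of 0.05. Standard errors are the fold change over the root of F. Centred values are log2 CPM with a prior count of 0.5. Lists are described by counts and medians, without a set test. On simulated counts of this comparison over 13445 genes, edgeR recovered 39.4% of 2-fold, 87.7% of 4-fold and 100% of 16-fold changes. Changes were planted in genes drawn at random, and recovery depends on how many were planted. In the real libraries Rasal3, with a log2 fold change of -6.3, was not called (edgeR adjusted p = 0.0808). The simulated shares therefore need not hold for the real comparison. No pair of libraries agreed within sampling noise (chi-square per gene 44.9 or more). Alternatives were RLE factors, library size only, no filter, mean CPM of 5 or more, the replicate number as a block, DESeq2 1.42.0, limma-voom (limma 3.58.1), an adjusted p of 0.01 and leaving out each library. The rule for named genes took Igf2bp1, the 10 genes, every called gene of a list, up to 4 tested genes of each list with the smallest p, and the 5 nearest patterns to Etv1 and Dusp6. The genes and lists were chosen with earlier results of these data known. Genes outside the rule were named after their values were seen (Arl4a, Ispd, Ndfip1, Arhgap26, Spry3, Cic and markers at 0). Not every gene named by this rule is reported here.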

Additional observations from a re-analysis of the deposited data

How the results depend on the processing

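The 3 genes called over all genes stayed at 3 with RLE factors or library size only, and became 138 without a filter, 82 with DESeq2, 18 with the replicate block, and 1 at an adjusted p of 0.01, under limma-voom or after a filter at mean CPM 5. They ran from 1 to 5 when each library was left out. The 8 tested genes other than Etv1, and the pathway lists, had 0 calls under every alternative, with a smallest adjusted p of 0.25 among the 8, for Dusp4 without shNT replicate 1. The 104 values of the 8 genes under alternatives are refits of the same 6 libraries and not independent, so their signs are a description. Of them 98 were negative. The 6 positive values came from leaving out shNT replicate 3 or shIGF2BP1 replicate 1. Leaving out libraries gave log2 fold changes from -0.48 to 0.0084 for Etv4, -0.31 to 0.14 for Etv5, -0.72 to 0.25 for Spry1, -0.36 to 0.33 for Dusp6 and -2.13 to 1.36 for Dusp8. The cause was not tested. The fitted value of Etv1 ran from -6.58 to -5.31 without single libraries and depends on the prior count, and the filter at mean CPM 5 removed it. For Igf2bp1 the replicate block gave -0.047 and limma-voom -0.24, and its values ran from -1.24 to 0.76 without single libraries. Deviations of libraries with 1 number in common correlated at 0.18, -0.095 and 0.26, and those of libraries with unlike numbers at -0.35 to 0.21. The labels state no pairing, so the numbers are not taken to pair the samples, but these values cannot exclude a pairing. The block changed no call among the 8 genes. With library size only, the median of all genes was 0.068, that of the 8 genes -0.18 and that of the ERK output genes -0.55. Depth limits Etv1 and Rasal3, with 5 and 2 counts in the knockdown-labelled libraries.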
